A study of Rattus norvegicus with 16 samples.

Results

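The adrenergic receptors are the cell-surface receptors for noradrenaline and adrenaline, and 6 of their genes, Adra1a, Adra1b, Adra1d, Adra2a, Adrb1 and Adrb3, were followed in the supraspinatus, a rotator cuff muscle, of the rat. They are 6 of the 17147 genes in the deposited table, and Adra2b and Adra2c, the other alpha-2 receptors, are described beside them. The members are given by name. They were selected on their levels and fold changes in these same 16 libraries, so those values are a description and carry no test. Other genes of the pathway were tested, but their lists too were chosen with earlier results of these data known. Of the 6 members, 5 passed the filter on low counts and Adrb1 did not.

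All libraries came from Sprague Dawley rats, and the labels give neither age nor sex. One group of 4 was unoperated and is called 0 days. The other groups, also of 4, had a bilateral full-thickness tear of this muscle together with a neurectomy of the suprascapular nerve, its nerve supply, and were taken 10, 30 or 60 days later, so the tear and the lost nerve supply cannot be told apart in any of them. No operated group lacks either injury, and the unoperated rats serve for every time. No number in the library titles repeats, but the labels do not say whether any libraries share a rat, and both shoulders were injured. The p-values therefore measure only the spread between these libraries.

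Adrenergic receptors couple to G proteins. The alpha-1 subtypes act through Gq and phospholipase C to raise calcium, the alpha-2 subtypes act through Gi to lower cyclic AMP, and the beta subtypes act through Gs and adenylyl cyclase to raise cyclic AMP and activate protein kinase A. Alpha-1 receptors are best known in muscle from the smooth muscle of blood vessels, and the beta-3 receptor (Adrb3) from fat cells.

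Library totals ran from 17184282 to 39903266 fragments, and the 60-day libraries were the shallowest, at 17184282 to 22386113. Levels are given in CPM, counts scaled to a common library size by TMM, whose factors set the bulk of the genes level between libraries. A count of 0 allows a level of up to 3 fragments, which is 0.0712 to 0.175 CPM across libraries, and this covers counting error only. The muscle identity of the tissue was plain from 8 fibre genes such as Acta1 and Ckm, whose summed level ran from 218684 to 242074 CPM at 0 days, 61358 to 66003 at 10 days, 102151 to 145074 at 30 days and 126909 to 149606 at 60 days. In such bulk tissue, fewer cells of a type and less RNA per cell cannot be told apart.

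Adra1b, the alpha-1B receptor, was close to absent from unoperated muscle and was high 10 days after injury. At 0 days the 4 libraries held 0, 2, 3 and 0 fragments, which is 0 to 0.134 CPM. At 10 days they held 691, 771, 689 and 877 fragments, or 20.05, 25.3, 22.7 and 26.96 CPM. Every 10-day library therefore stood far above every other library of the series. At 30 days the libraries had 155, 97, 84 and 135 fragments, or 5.49, 2.30, 3.36 and 5.43 CPM. At 60 days 4, 8, 6 and 4 fragments remained, or 0.184, 0.449, 0.351 and 0.178 CPM. No group overlapped with any other, and the order of the group means was 10 days, 30 days, 60 days and 0 days. In that order the means were 23.8 CPM ± 3.03 (SD, n = 4), 4.15 ± 1.58, 0.290 ± 0.132 and 0.0518 ± 0.0647.

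The fitted log2 fold change of Adra1b against 0 days was 8.60 ± 0.44 (SE), 6.07 ± 0.49 and 2.22 ± 0.80 for 10, 30 and 60 days. Of the 11658 genes tested, it had the 4th highest value at 10 days, the 32nd at 30 days and the 197th at 60 days. It was selected on these values, so the ranks only describe it. In the groups of 60 and 0 days alone it failed the filter on low counts. From 10 to 30 days its log2 change was -2.53 ± 0.25, and from 30 to 60 days -3.85 ± 0.38. Since the 0-day group held 5 fragments in all, the size of its folds rests on very few counts. Pooled over the 4 libraries of a group, the level at 10 days was 419 times that at 0 days, with a 95% counting interval of 179 to 1290. The same ratio was 69.2 (29.5 to 214) at 30 days and 4.91 (1.82 to 16.6) at 60 days, where the 22 fragments of the 60-day group are compared with those 5. Without replicate 3 of 0 days, which holds 3 of the 5 fragments, the fitted log2 values were 9.41, 6.88 and 3.04. With library totals in place of TMM the 10-day value was 9.22.

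To show the sequence of the member with the highest folds and of a subtype with the opposite course, the 250 bases before the RefSeq start of Adra1b and of Adra1d are given, with that of Adra2a, the one member of those matched that holds an E-box. An E-box is the CANNTG motif bound by myogenic factors. Sequences are from promoter windows of rat assembly GRCr8, which matched 4 of the 6 members, while RefSeq lists all 6. The processing notes name rn5 for the deposited counts, so the positions are not those of the counts. They are Adra1b at chr10:28814348-28814597 on the minus strand, Adra1d at chr3:139262332-139262581 on the minus strand and Adra2a at chr1:263066530-263066779 on the plus strand. All letters run 5′ to 3′ towards the start, and capitals mark an E-box.
Adra1b: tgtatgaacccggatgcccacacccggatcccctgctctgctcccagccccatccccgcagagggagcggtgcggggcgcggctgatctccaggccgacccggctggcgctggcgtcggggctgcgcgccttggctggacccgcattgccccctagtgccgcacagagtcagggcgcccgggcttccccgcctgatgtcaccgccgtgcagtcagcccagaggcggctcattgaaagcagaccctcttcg
Adra1d: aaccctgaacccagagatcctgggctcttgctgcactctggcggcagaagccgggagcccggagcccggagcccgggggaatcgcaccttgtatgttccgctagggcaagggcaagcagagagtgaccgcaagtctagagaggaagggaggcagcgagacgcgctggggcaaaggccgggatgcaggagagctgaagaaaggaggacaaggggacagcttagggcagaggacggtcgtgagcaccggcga
Adra2a: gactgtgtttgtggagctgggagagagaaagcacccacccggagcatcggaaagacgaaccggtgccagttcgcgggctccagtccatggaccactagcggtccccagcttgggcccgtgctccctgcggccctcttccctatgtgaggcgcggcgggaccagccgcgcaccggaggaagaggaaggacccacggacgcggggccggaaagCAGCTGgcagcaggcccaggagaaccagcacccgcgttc
The Adra1b window is rich in G and C, at 70.8%, as are those of Adra1d (64.0%), Adra2a (67.6%) and Adrb1 (72.0%), beside a median of 51.2% over 33469 promoter windows. Both strands were searched. The E-box CANNTG was found in 65.54% of all windows. One of its forms, CAGCTG, which is counted under both, was found in 11.97%. The cyclic AMP response element TGACGTCA was found in 1.59% of windows, and the TATA box, spelled TATAAA, in 12.93%. The 1 match among the 4 members was that E-box form in Adra2a, 39 bases before the start. The Adra1b window lies inside the span that RefSeq gives the gene, whose longest model begins further upstream. In that annotation 1 other gene, LOC108352076, overlaps Adra1b, and without a stated strand setting their fragments could not be separated.

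Adra1a, the alpha-1A receptor, was also highest at 10 days but was present before injury. Its libraries had 0.731, 0.770, 0.625 and 0.479 CPM at 0 days, from 10 to 21 fragments each. They had 4.79, 8.74, 4.28 and 4.73 CPM at 10 days, 1.74, 1.33, 0.840 and 2.09 at 30 days and 0.231, 0.337, 0.351 and 0.667 at 60 days. The 10-day and 30-day libraries all lay above those of 0 days and did not overlap with each other, while those of 60 and 0 days overlapped. The log2 fold change against 0 days was 3.10 ± 0.32 (SE), 1.19 ± 0.34 and -0.70 ± 0.42 for 10, 30 and 60 days, and with library totals the first pair of values was 3.75 and 1.69. Replicate 2 of 10 days was the high library, and the other 3 lay between 4.28 and 4.79 CPM. From 10 to 60 days the value was -3.79 ± 0.35.

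Adra1d, the alpha-1D receptor, went the other way. Its libraries had 1.799, 2.24, 2.01 and 1.63 CPM at 0 days and 0.609, 0.821, 0.725 and 0.553 CPM at 10 days. At 30 days they had 0.815, 0.902, 0.680 and 0.643 CPM and at 60 days 1.25, 1.74, 0.994 and 1.33. The libraries of 10 and 30 days overlapped with each other, and all 8 lay below those of 0 days. Those of 60 days lay above both and reached into the range of 0 days. Against 0 days the log2 fold change was -1.50 ± 0.21 (SE), -1.32 ± 0.21 and -0.54 ± 0.21 at 10, 30 and 60 days, and the direction held with library totals (-0.85, -0.83 and -0.12).

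**Figure D1:**
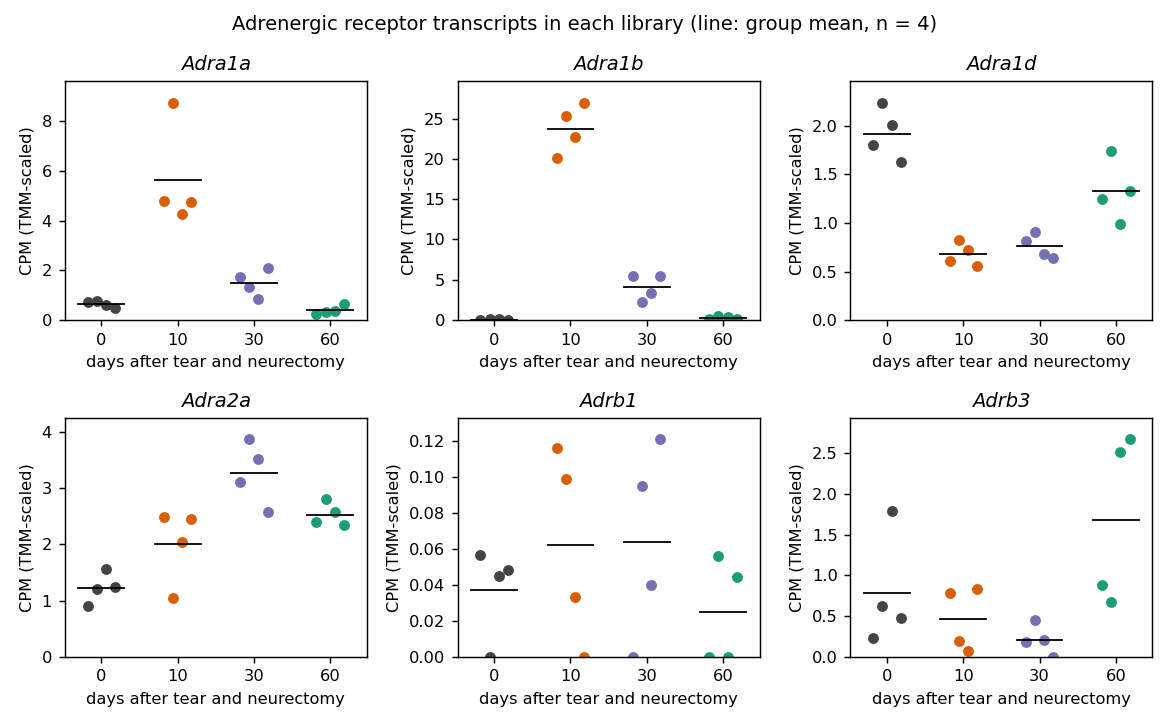
Level of each of the 6 receptor transcripts (vertical axis, TMM-scaled CPM from 0, a separate scale for each gene) in the 4 libraries of each group (horizontal axis, days after injury), with a line at the group mean. Adra1b and Adra1a peak at 10 days, Adra1d is lowest at 10 and 30 days, Adra2a is highest at 30 days, and Adrb1 stays below 0.121 CPM.

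The alpha-1 subtypes can be set against each other within a library, a measure that no scaling between libraries touches. Shares of fragments depend on transcript length, so their change over time is the point and not the order of the genes. At 0 days Adra1d made up 73.4% ± 2.68 (SD, n = 4) of the alpha-1 fragments, Adra1a 24.8% ± 2.94 and Adra1b 1.805% ± 2.31. At 10 days Adra1b made up 79.2% ± 4.85 and Adra1d 2.27% ± 0.387. At 30 days Adra1b still made up 63.6% ± 8.61, between 50.8% and 68.9%. By 60 days Adra1d was back at 65.9% ± 7.45, and Adra1b was at 14.4% ± 5.79, between 8.16% and 20.7%. The Adra1b share at 60 days lay above that of 0 days, where it was 4.84% at most, but the 60-day shares rest on 29 to 49 alpha-1 fragments per library. The group means of Adra1a lay between 18.5% and 24.8%, and the ranges of all 4 groups overlapped. The summed alpha-1 level was 2.62 CPM ± 0.410 (SD, n = 4), 30.1 ± 4.28, 6.41 ± 1.97 and 2.01 ± 0.414 for 0, 10, 30 and 60 days.

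**Figure D2:**
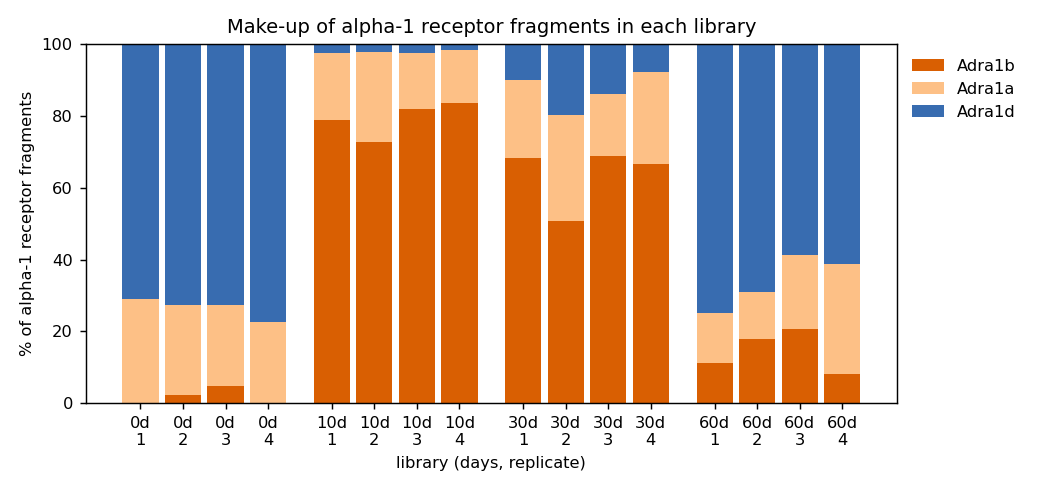
Share of alpha-1 receptor fragments (vertical axis, percent) that fell on Adra1b, Adra1a and Adra1d in each of the 16 libraries (horizontal axis, days and replicate). Adra1d takes most of each bar at 0 and 60 days, and Adra1b takes 72.6% to 83.6% at 10 days.

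Adra2a, the alpha-2A receptor, which restrains cyclic AMP, was highest at 30 days. Its libraries had 0.900, 1.21, 1.56 and 1.245 CPM at 0 days and 2.50, 1.05, 2.04 and 2.46 CPM at 10 days. At 30 days they had 3.12, 3.87, 3.52 and 2.57 CPM and at 60 days 2.40, 2.80, 2.57 and 2.36. The groups of 30 and 60 days lay wholly above 0 days and overlapped with each other. At 10 days replicate 2 lay within the 0-day range and the other 3 lay above it. The log2 fold changes were 0.70 ± 0.25 (SE), 1.40 ± 0.24 and 1.03 ± 0.25 at 10, 30 and 60 days, and 1.36, 1.90 and 1.44 with library totals.

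Adrb3, the beta-3 receptor known from fat, varied widely within each group. It had 4, 17, 40 and 10 fragments at 0 days (0.225 to 1.78 CPM) and 27, 6, 2 and 27 at 10 days (0.0659 to 0.830 CPM). It had 5, 19, 5 and 0 at 30 days (0 to 0.451 CPM) and 19, 12, 43 and 60 at 60 days (0.673 to 2.67 CPM). The 60-day libraries lay above all those of 30 days and overlapped with both other groups. The log2 fold change against 0 days was -0.73 ± 0.75 (SE), -1.77 ± 0.83 and 1.08 ± 0.70 for 10, 30 and 60 days, and from 30 to 60 days it was 2.85 ± 0.79. Replicate 3 of 0 days weighed on these values: without it they were 0.059, -0.98 and 1.88 against 0 days. Without replicate 2 of 30 days the 30-day value was -2.59.

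Adipocyte markers, like Adrb3, had their highest mean at 60 days. From 10 to 30 days mean Adrb3 went from 0.469 to 0.207 CPM, while the mean marker sum went from 59.0 to 71.8 CPM. Both pairs of groups overlapped. The summed level of 7 of 7 listed markers (Adipoq, Lep, Plin1, Cidec, Retn, Cfd and Lipe) ran from 64.7 to 118 CPM at 0 days, 46.6 to 73.4 at 10 days, 52.4 to 89.7 at 30 days and 134 to 249 at 60 days, and none of the 7 was at 0 in all libraries. At 60 days 6 of them rose against 0 days and 0 fell, while at 10 days and at 30 days 0 rose and 1 fell. The 2 libraries with the most Adrb3, at 2.51 and 2.67 CPM, also had the highest marker sums of the series, at 249 and 220 CPM. Replicate 2 of 60 days, with a sum of 143 CPM, had 0.673 CPM of Adrb3. Replicate 3 of 0 days, with a sum of 118 CPM, had 1.78 CPM. Schwann cell, fibroblast and endothelial markers also had their highest mean sums at 60 days. The part of fat cells or any other cells in the Adrb3 values was not tested.

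**Figure D3:**
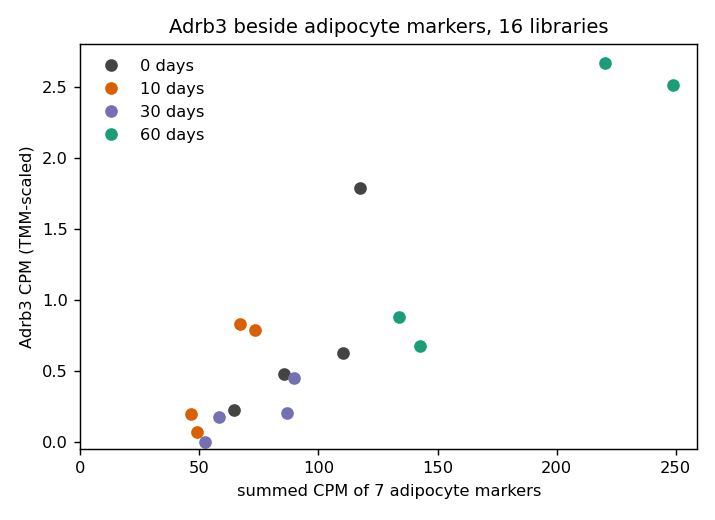
Adrb3 level (vertical axis, TMM-scaled CPM) against the summed level of 7 adipocyte markers (horizontal axis, CPM) in the 16 libraries, coloured by group. The 4 libraries of 60 days have the highest marker sums, and 2 of them the highest Adrb3.

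Adrb1, the beta-1 receptor, the main subtype of the heart, was barely detected. No library had more than 4 fragments, and the groups held 3, 8, 8 and 2 fragments at 0, 10, 30 and 60 days. All groups lie at or near the limit of detection, so no fold is given and no difference was detectable at this depth.

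Counted over the members, 3 of 6 had 10-day libraries wholly apart from the unoperated ones (2 higher, 1 lower), beside 59.0% of all genes tested (31.2% higher, 27.8% lower). At 30 days there were 4 (3 higher, 1 lower), beside 60.2% (31.1% and 29.1%), and at 60 days 2 (both higher), beside 50.0% (24.0% and 26.0%). Among the injured groups there were 3 from 10 to 30 days (1 higher, 2 lower), beside 43.8% (21.0% and 22.8%). From 30 to 60 days there were 4 (2 higher, 2 lower), beside 20.1% (8.87% and 11.3%), and from 10 to 60 days 3 (1 higher, 2 lower), beside 51.2% (23.7% and 27.5%). The comparisons against 0 days share the same 4 unoperated libraries. The median log2 fold change of the 5 fitted members was 0.70, 1.19 and 1.03 at 10, 30 and 60 days, beside 0.06, 0.05 and 0.04 over all genes. Since the members were chosen by these values, nothing is read from these counts.

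Adra2b and Adra2c were not among the members. Adra2b, the alpha-2B receptor, fell at 10 days by 1.31 on the log2 scale (SE 0.31, edgeR adjusted p 0.00135) and did not pass at 30 days (-0.63, 0.0706) or 60 days (0.52, 0.128). With library totals its 10-day value was -0.66 (adjusted p 0.0652) and its 60-day value 0.92 (0.0110). At 30 days it passed without replicate 3 of 0 days (-0.84, adjusted p 0.0134) or without replicate 2 of 10 days (-0.63, 0.0463). Adra2c had 2 to 24 fragments per library and did not pass at any time (-0.65, 0.18 and 0.44, edgeR adjusted p 0.320, 0.770 and 0.495).

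**Figure D4:**
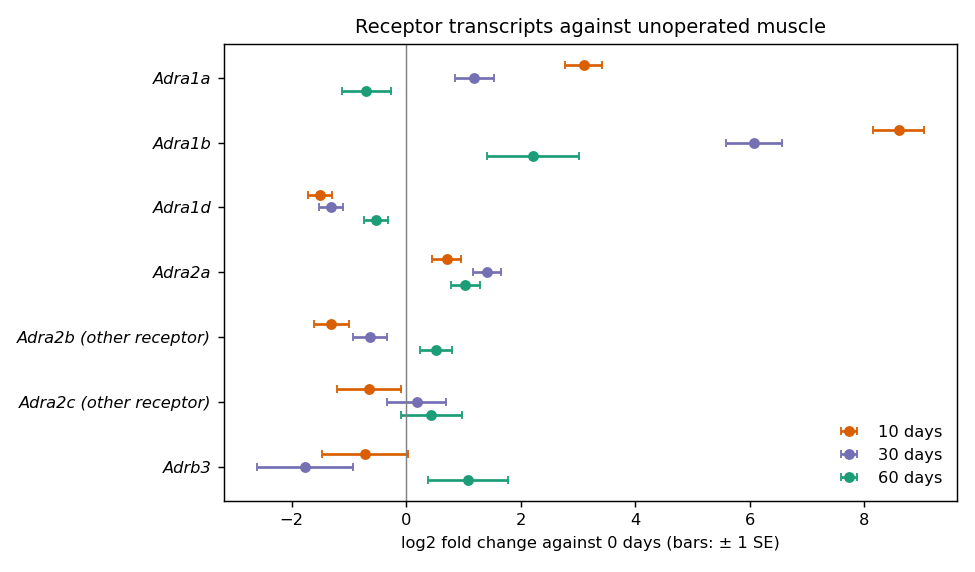
Fitted log2 fold change against 0 days (horizontal axis) at 10, 30 and 60 days for the 5 members that passed the filter and for Adra2b and Adra2c, with bars of 1 SE on either side. Adra1b lies farthest to the right at each time.

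The genes whose course was most like each member's were found by the Pearson correlation of log2 CPM over the 16 libraries, among 10132 genes (10133 for Adrb3) with a mean of at least 1 CPM. For Adra1b these were Ap3m1 (r 0.985), a subunit of the AP-3 sorting complex, Eif4a1 (0.982), a translation initiation helicase, Spg21 (0.982), Fam38a (0.979), the older symbol of the mechanically gated channel Piezo1, and Kcnn3 (0.979), a calcium-activated potassium channel. The group means of Kcnn3 were 15.2, 131, 55.3 and 20.3 CPM in the order of time. For Adra1a they were Trmt6 (0.968), Fads3 (0.963) and Efr3a (0.963). For Adra1d they were Flt1 (0.963), a VEGF receptor of endothelium, Pde4c (0.946), a cyclic AMP phosphodiesterase, and Arrdc2 (0.943). For Adra2a they were Arhgap4 (0.926), Nfkbiz (0.920) and Cercam (0.908). For Adrb3 they were Plin1 (0.932), the coat protein of fat-cell lipid droplets, Pck1 (0.924) and Lep (0.907), which encodes leptin. The points share libraries and scaling, and likeness in course is all that r describes.

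Vessel markers are set beside Adra1d, but they were not the only markers lower at 10 days. The 8 muscle fibre markers had mean sums of 233561, 63230, 123889 and 137983 CPM at 0, 10, 30 and 60 days. Of these 8, 7 fell and 1 rose at 10 days, 6 and 1 at 30 days and 5 and 2 at 60 days. The summed level of 11 of 11 smooth muscle and pericyte markers ran from 691 to 826 CPM at 0 days, 473 to 553 at 10 days, 464 to 509 at 30 days and 517 to 749 at 60 days, with 9 of them lower at 10 days and 8 at 30 days, and 0 higher at either time. The 7 endothelial markers summed to 342 to 411 CPM at 0 days and 192 to 294 at 10 days. They summed to 288 to 339 at 30 days and 307 to 477 at 60 days. All 7 fell at 10 days, but only 2 fell and 0 rose at 30 days, and 1 fell and 1 rose at 60 days. Of the smooth muscle and pericyte markers 2 rose and 2 fell at 60 days. No marker of either list was at 0 in all libraries. The part of vessels, fibres or any other cells in the Adra1d values was not tested.

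Around the receptors, 90 further genes of catecholamine supply and adrenergic signalling were listed, of which 89 are in the table and 85 were tested. The list was chosen with earlier results of these data known, so its counts describe it and are no test of the list against all genes. At 10 days 56 of the 85 changed (65.9%, 21 higher and 35 lower), beside 62.7% of all genes tested (33.3% higher, 29.4% lower), by edgeR's quasi-likelihood test at an adjusted p under 0.05. At 30 days 46 changed (17 higher, 29 lower), beside 64.6% (33.7% higher, 30.9% lower), and at 60 days 46 (23 higher, 23 lower), beside 59.0% (29.9% and 29.1%). Between 60 and 10 days 51 differed (31 higher, 20 lower at 60 days), beside 61.1% (29.1% and 31.9%). The list's median log2 fold change was -0.22, -0.21 and 0.10 at the 3 times against 0 days. The split by direction depends on the scaling. With library totals, which raise the median of all genes by 0.66, 0.49 and 0.41, it was 43 higher and 12 lower at 10 days, 37 and 19 at 30 days and 45 and 15 at 60 days. Between 60 and 10 days it was 21 and 26. With upper-quartile factors, which raise the median by 0.12 and 0.14 at 30 and 60 days, it was 32 higher and 20 lower at 60 days. The counts of the smaller lists below stand beside the same shares of all genes. Their splits by direction were not recounted under other scalings, so no direction is read from them.

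On the supply side, Th, which encodes tyrosine hydroxylase, the enzyme that sets the pace of catecholamine synthesis, rose with Adra1b. Its libraries had 0, 4, 1 and 0 fragments at 0 days, 179, 453, 254 and 316 at 10 days, 591, 6, 53 and 97 at 30 days and 1, 0, 1 and 4 at 60 days. All libraries of 10 days, at 5.19 to 14.9 CPM, lay above those of 0 days, at 0.147 CPM at most. At 30 days the libraries spread from 0.142 to 20.9 CPM, and the lowest lay within the 0-day range. The log2 fold change was 7.29 ± 1.39, 6.79 ± 1.41 and 0.40 ± 2.99 (SE) for 10, 30 and 60 days, with edgeR adjusted p-values of 0.000280, 0.000624 and 0.918. With so few fragments at 0 days, the size depends on single libraries. Without replicate 2 of 0 days the log2 values were 8.82, 8.31 and 1.94, and without replicate 1 of 30 days the 30-day value was 5.01 (adjusted p 0.00151). Without replicate 4 of 60 days the 60-day value was -0.59.

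Other listed markers of sympathetic neurons did not follow a single course, and the source of Th was not tested. Dbh, which makes noradrenaline, had 0 to 4 fragments in every library and 20 in all. Npy had 0 in all 16, and both were too low to show a course. Slc6a2, the noradrenaline transporter, averaged 0.492 CPM at 0 days and 0.205 at 10 days, a fall (log2 -1.21, edgeR adjusted p 0.0197). It had only 3 to 14 fragments per library, and the libraries of 10 and 0 days overlapped. Its call was not checked under other scalings or without single libraries. Uchl1, which other cells also express, averaged 1.20 CPM at 0 days and 10.3, 8.78 and 6.80 at 10, 30 and 60 days. The 5 of 6 listed markers found in the table, Th among them, summed to 1.61 to 1.91 CPM at 0 days and 15.9 to 26.3 at 10 days. The sum was 6.43 to 31.5 at 30 days and 4.84 to 9.53 at 60 days. Of the 3 that were tested, 2 were higher and 1 was lower at 10 days, 2 were higher at 30 days and 1 at 60 days.

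Of the 9 genes of supply tested, 1 rose and 5 fell at 10 days, 2 rose and 2 fell at 30 days and 2 rose and 2 fell at 60 days. Besides Th, Ddc, which makes dopamine from L-DOPA, rose at 30 days (log2 0.88 ± 0.22, edgeR adjusted p 0.00242). Maoa, monoamine oxidase A, which breaks down noradrenaline, fell from 51.9 CPM ± 1.83 (SD, n = 4) at 0 days to 28.8 ± 1.43 at 30 days and 28.6 ± 2.49 at 60 days (log2 -0.85 and -0.86, edgeR adjusted p 2.43e-08 and 4.62e-08). At 10 days Maoa fell by 0.22 on the log2 scale (adjusted p 0.00757), a direction that flipped to 0.43 with library totals. Slc22a3, an uptake transporter outside nerve endings, fell at 10 days (-1.35, 0.00147), a call lost with library totals (-0.70, 0.0650).

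Among 12 G protein subunits, 5 changed at 10 days (3 higher, 2 lower), 4 at 30 days (2 and 2) and 8 at 60 days (5 and 3). Gnao1, the alpha subunit of Go, fell at all 3 times, from 9.98 CPM ± 0.732 (SD, n = 4) in unoperated muscle to 1.16 ± 0.245, 1.40 ± 0.169 and 2.48 ± 0.104 (log2 -3.10, -2.82 and -2.01, edgeR adjusted p 1.73e-10, 5.55e-10 and 2.23e-08). Gnb3, a beta subunit, rose at all 3 (1.52, 1.81 and 1.30). Gna11, which like Gq links alpha-1 receptors to phospholipase C, fell at 30 and 60 days (-0.69 and -0.70, adjusted p 0.00192 and 0.00235), calls lost with library totals (-0.20 and -0.30). Gnb5, another beta subunit, fell at 60 days (-0.74, 0.00158), also lost with library totals (-0.33). Gnas, the alpha subunit of Gs that serves the beta receptors, was lower at 10 days (-0.63, 7.42e-06) and higher at 60 days (0.26, 0.0161). With library totals its 10-day value flipped to 0.033, and its 60-day call was lost without replicate 2 (0.20, adjusted p 0.0643) or replicate 3 (0.21, 0.0595) of 60 days.

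Adenylyl cyclases make cyclic AMP, and of 8 tested 2 rose and 5 fell at 10 days, 1 and 4 at 30 days and 1 and 3 at 60 days. Adcy2 rose from 137 CPM ± 5.90 (SD, n = 4) at 0 days to 264 ± 7.86 at 10 days (log2 0.95, edgeR adjusted p 8.15e-07). At 60 days it was lower than at 0 days (-0.36, 0.00743), a call lost with upper-quartile factors (-0.23) and a direction that flipped to 0.039 with library totals. Adcy9 fell at all 3 times (-1.77, -3.28 and -2.47), and Adcy7, an isoform of blood cells, rose at all 3 (0.88, 1.16 and 1.27). Adcy5 fell at 10 and 30 days (-1.10 and -0.64), the later call being lost with library totals (-0.15).

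Macrophage markers were higher after injury, as were Adcy7 and, in the phospholipase C arm named next, Prkcb and Plcb2. Macrophage markers were not the only ones to rise. The 5 of 6 listed macrophage markers in the table summed to 10.5 to 21.2 CPM at 0 days, 36.9 to 54.6 at 10 days, 53.4 to 66.3 at 30 days and 38.4 to 78.6 at 60 days, with 4, 5 and 5 of them higher at 10, 30 and 60 days and none at 0 in all libraries. T cell markers had a mean sum of 3.71, 12.7, 13.9 and 10.5 CPM at 0, 10, 30 and 60 days. For fibroblast markers it was 462, 1135, 1212 and 1322 CPM. The mean sums for muscle fibres, smooth muscle and pericytes, endothelium, adipocytes and Schwann cells were lower at 10 days than at 0 days. The part of any of these cells in these values was not tested.

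The phospholipase C arm, through which alpha-1 receptors act, had 12 genes tested. At 10 days and at 30 days 4 rose and 4 fell, and at 60 days 5 rose and 3 fell. Prkcb, protein kinase C beta, rose (log2 1.82, 2.26 and 1.93 at 10, 30 and 60 days, edgeR adjusted p 0.000168, 1.87e-05 and 0.000170), and Plcb2 rose at all 3 times (1.13, 1.47 and 1.02), its 60-day call being lost without replicate 4 of 60 days (0.68, adjusted p 0.0721). Prkcq, the protein kinase C theta of muscle fibres, fell from 199 CPM ± 13.4 (SD, n = 4) to 56.5 ± 8.38, 76.4 ± 13.7 and 99.0 ± 21.8 (-1.81, -1.38 and -1.01). Prkce, protein kinase C epsilon, fell at 30 and 60 days (-1.81 and -1.85) and at 10 days (-0.72), where the call was lost with library totals (-0.06).

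Of 9 protein kinase A genes tested, 4 rose and 2 fell at 10 days, 5 and 3 at 30 days and 4 and 3 at 60 days. Pkia, which encodes an inhibitor peptide of the kinase, fell from 742 CPM ± 83.1 (SD, n = 4) in unoperated muscle to 129 ± 44.3, 146 ± 28.3 and 171 ± 84.2 (log2 -2.52, -2.34 and -2.12, edgeR adjusted p 1.47e-06, 3.78e-06 and 1.33e-05). The other inhibitor genes of the list, named here after their values were seen, went the other way. Pkig rose from 80.3 CPM ± 6.94 to 172 ± 9.59, 111 ± 7.23 and 116 ± 7.92 (log2 1.10, 0.46 and 0.54, adjusted p 4.86e-09, 6.61e-05 and 2.13e-05). Pkib, at 0.104 CPM ± 0.0503 in unoperated muscle, rose by log2 3.91, 2.89 and 2.26 (adjusted p 2.47e-05, 0.000846 and 0.0110), and its 60-day call was lost without replicate 4 of 60 days (1.37, 0.100). Prkar2a, a regulatory subunit, fell from 137 CPM ± 14.6 to 16.1 ± 3.76 at 30 days and 17.9 ± 12.1 at 60 days (-3.08 and -2.92, adjusted p 4.91e-07 and 1.34e-06). At 10 days it fell by 0.89 (adjusted p 0.0116), a call lost with library totals (-0.23). Without replicate 1 of 60 days its 60-day value was -3.52. Prkar2b, the regulatory subunit known from fat cells, rose at 60 days alone among the tests against 0 days (1.75, 0.00137), the time at which adipocyte markers were highest. The mean sums of Schwann cell, fibroblast and endothelial markers were also highest at 60 days, at 154, 1322 and 414 CPM. At 0 days they were 60.4, 462 and 381 CPM. The part of fat cells or any other cells in the Prkar2b values was not tested. Prkar1b rose at all 3 times (1.13, 1.59 and 0.84). Its 60-day call (adjusted p 0.0202) was lost without replicate 3 or 4 of 0 days (0.77 and 0.69) or replicate 2 of 60 days (0.71).

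Phosphodiesterases break down cyclic AMP, and of 10 tested 4 fell and 2 rose at 10 days, 5 and 1 at 30 days and 5 and 3 at 60 days. Pde4a fell from 78.7 CPM ± 4.74 (SD, n = 4) at 0 days to 5.81 ± 2.43 at 10 days, 13.0 ± 4.01 at 30 days and 21.2 ± 4.20 at 60 days (log2 -3.75, -2.59 and -1.90, edgeR adjusted p 7.85e-09, 2.78e-07 and 8.11e-06). Pde4d fell at all 3 times (-0.80, -1.85 and -1.77), and so did Pde7b (-0.99, -1.61 and -1.10). With library totals both 10-day calls were lost (-0.15 and -0.33). That of Pde4d (adjusted p 0.0199) was also lost without replicate 1 of 0 days (-0.54) or replicate 3 or 4 of 10 days (-0.71 and -0.70). Pde7a rose at all 3 times (1.97, 1.87 and 1.33).

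Among 10 genes that switch receptors off, 2 rose and 4 fell at 10 days, 2 and 3 at 30 days and 3 and 1 at 60 days. Adrbk1, the older symbol of Grk2, the kinase that phosphorylates active beta receptors, fell from 85.1 CPM ± 3.67 (SD, n = 4) in unoperated muscle to 42.6 ± 2.85, 28.4 ± 1.92 and 40.9 ± 5.43 (log2 -0.997, -1.58 and -1.06, edgeR adjusted p 4.18e-08, 7.07e-10 and 6.30e-08). Arrb2, a beta-arrestin, rose at all 3 times (0.75, 0.88 and 0.70). Rgs2, which shortens Gq signals, rose at all 3 times (0.50, 0.81 and 1.44). Its 10-day call (adjusted p 0.0417) was lost with the replicate block (0.48, 0.0648), with RLE factors (0.46) and without replicate 2, 3 or 4 of 0 days or 1 or 4 of 10 days (0.33 to 0.50). Rgs4, another such regulator, fell at 10 and 30 days (-0.97 and -0.61), calls lost with library totals (-0.31 and -0.12).

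Of 12 genes of cyclic AMP-responsive transcription tested, 8 fell and 3 rose at 10 days, 6 fell and 0 rose at 30 days and 3 fell and 0 rose at 60 days. Nr4a1, an orphan nuclear receptor induced in muscle by beta agonists, fell from 420 CPM ± 203 (SD, n = 4) at 0 days to 32.3 ± 19.6 at 10 days and 70.1 ± 37.0 at 30 days (log2 -3.70 and -2.58, edgeR adjusted p 5.68e-05 and 0.000866). Its relative Nr4a3 fell at all 3 times (-2.45, -2.98 and -1.95), its 60-day call (adjusted p 0.0126) being lost without replicate 1 of 0 days (-1.50, 0.0568). Per1, a clock gene with cyclic AMP response elements, fell at 30 days (-1.79, 0.000114) and at 10 days (-1.27), where the call was lost with library totals (-0.61). Fos fell at 10 days (-2.25, 0.0138), a call lost without replicate 2 of 0 days (-1.46, 0.0718) and with library totals (-1.58, 0.0548). Atf1 was higher at 10 days (0.26, 0.00273) and lower at 30 days (-0.33, 0.000440), the latter direction flipping to 0.17 with library totals.

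**Figure D5:**
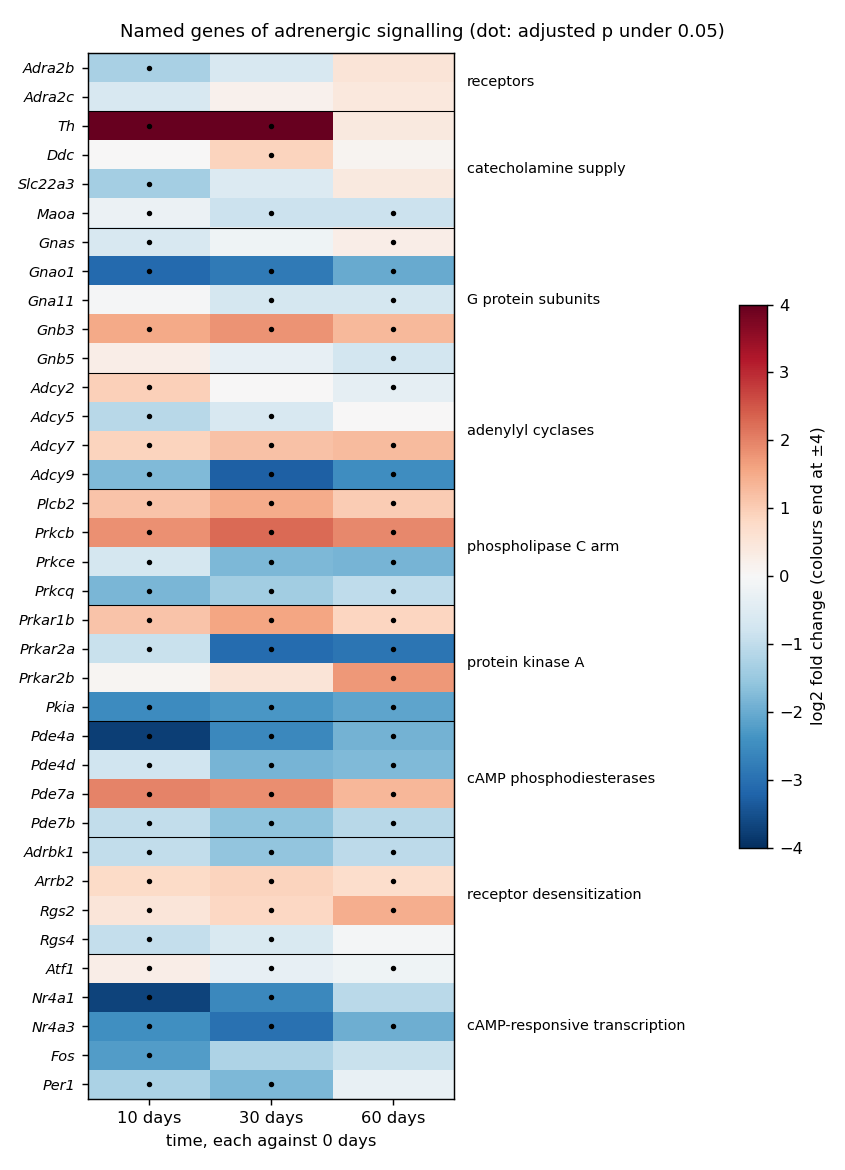
Log2 fold change (colour, ending at 4 on either side of 0) against 0 days at 10, 30 and 60 days (columns) for the named genes of each list (rows), with a dot where the edgeR adjusted p was under 0.05. Th stands out as higher at 10 and 30 days, while Gnao1, Adcy9, Pkia and Pde4a are lower at all 3 times.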

How the data were processed

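Messenger RNA of supraspinatus muscle was sequenced in 16 libraries, 4 per time. The authors deposited 1 table of raw fragments per gene and library, per the file headers. They were handled with the unit expected counts, since 233 genes hold a deposited value that is not whole. The submitters' processing notes name bcl2fastq 1.8.4, FastQC, TopHat2 2.0.9, Bowtie2 2.1.0.0, Cufflinks and Cuffdiff 2.1.1 and the build rn5. Annotation, strand setting and filters are not given in the sources used here. The members and gene lists were chosen with earlier results of these data known.

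Counts were rounded and filtered (filterByExpr by group), which kept 11658 genes. Libraries were scaled with TMM factors, and 1 edgeR quasi-likelihood model with robust estimation was fitted to all libraries, with p-values adjusted by the Benjamini-Hochberg method over all genes and called under 0.05. SE is the log2 fold change divided by the square root of F. Ratios of pooled fragments have exact binomial intervals at 95%. Named genes were the members, the other receptors, up to 4 genes of each list with the largest change against 0 days and a mean of at least 1 CPM, and those called in opposite directions at different times; some genes this rule names are not reported here. Other genes were named for being most alike to a member or as cell type markers. Log2 CPM used a prior count of 2. The method was tested on simulated data. Alternatives were RLE and upper-quartile factors, library totals, DESeq2, no filter for low counts, the 2 compared groups alone, the replicate block, the title letter and leaving out each library. Software was R 4.3.3, edgeR 4.0.16, DESeq2 1.42.0, python 3.11.15 and matplotlib 3.10.9.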

Additional observations from a re-analysis of the deposited data

Results flagged for a closer look

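In the 36 groups of 4 checked for a library that stands apart (8 receptors and Th at 4 times), 2 had one, and chance gives about 1 in 20. Adra1a at 10 days had 8.74 CPM in replicate 2, against 4.28 to 4.79 in the others. Adra2b at 0 days had 0.669 CPM in replicate 3, against 1.46 to 1.58 in the others.

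For 3 pathway genes the change against 0 days had opposite directions at different times, and the difference between the times itself passed edgeR's test. Gnas was lower at 10 days and higher at 60 days, a difference of log2 0.88 between 60 and 10 days. Adcy2 was higher at 10 days and lower at 60 days, a difference of -1.31. Atf1 was higher at 10 days and lower at 30 and 60 days, with differences of -0.59 and -0.44 from 10 days. The 60-day call of Atf1 (-0.18, adjusted p 0.0282) was lost without any 1 of replicates 1, 2 and 3 of 0 days or 2, 3 and 4 of 60 days, with values of -0.13 to -0.18 and adjusted p from 0.0563 to 0.143. It was also lost with upper-quartile factors (-0.042, adjusted p 0.557) and in the 2 compared groups alone (-0.16, 0.105). With library totals the directions no longer opposed each other for any of the 3.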

How the results depend on the processing

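The counts of pathway genes changed stayed within 1.5 times their value under every alternative: with the replicate block they were 55, 48 and 45 at 10, 30 and 60 days against 0 days and 51 between 60 and 10 days, and the block ended 1 call of a named gene (Rgs2 at 10 days, 0.48, adjusted p 0.0648). Libraries with the same column suffix did not deviate together (mean r -0.107 to 0.063 over the 6 pairs of groups). Without each library in turn the counts ran from 52 to 60, 46 to 49, 39 to 51 and 47 to 55. The Adra1b log2 fold change ran from 8.24 to 9.41, 5.71 to 6.88 and 1.87 to 3.04 in those fits, the highest without replicate 3 of 0 days, and was 9.22 at 10 days with library totals. In the 2 compared groups alone Adra1b and Pkib at 60 days, Adrb3 at 30 days, Adra2c at 10 and 60 days and Th at 30 and 60 days could not be fitted, as they failed the filter. Directions reversed with library totals for Maoa (0.43) and Gnas (0.033) at 10 days, Adcy2 at 60 days (0.039) and Atf1 at 30 and 60 days (0.17 and 0.22). Values that passed no test reversed for Adra2c at 30 days with the title letter (-0.053) and without 1 library (-0.16 to 0.75), and for Th at 60 days without 1 library (-0.59 to 1.94). The cause was not tested. Depth limits the values of Adrb1 and Adra2c and the folds of Adra1b and Th, which had 5 fragments each at 0 days.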
